A study of Mus musculus with 10 samples.

Results

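The genes described here carry sulfate from its entry into the cell to its transfer onto proteins, sugars and small molecules: Papss1, Papss2, Slc26a2, Slc35b2, Tpst1, Tpst2, Sult1a1, Sult1c2 and Sult1d1. They are 9 of the 30142 genes measured. Each was taken from the array row annotated with its symbol alone, and all 9 had such a row. The set was built around Papss2 because its large fall after castration was already known, so every change of Papss2 is given as a description with no test. The other 8 were chosen by their place in the pathway, with earlier results of these data known, and are called its partners.

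Luminal epithelial cells were sorted from prostates of male mice with a Hoxb13-rtTA and a TetO-H2BGFP transgene, in which doxycycline switches on a nuclear fluorescent protein in cells using the Hoxb13 promoter. The intact group (n = 3) was untreated, the castrated group (n = 3) lost the testes at 12 weeks of age and regressed for 6 weeks, and the regenerated group (n = 4) was castrated and regressed in the same way and then carried testosterone implants for 4 weeks. All mice drank 2 mg/ml doxycycline for 1 week, and sorting kept GFP+ CD24+ cells with intermediate CD49f and without CD45, F4/80 or CD11b. Whether RNA of several mice was pooled for an array is not stated, and p-values here cover only the spread between the arrays of a group. No group was castrated for as long as the regenerated one without testosterone, so time since castration and testosterone cannot be told apart.

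Inorganic sulfate is inert until it is joined to adenosine nucleotides. The PAPS synthases Papss1 and Papss2 do this with a pair of activities in a single protein, an ATP sulfurylase and an APS kinase, and the product PAPS (3'-phosphoadenosine 5'-phosphosulfate) is the donor for sulfotransferases in the cell. Slc26a2 brings sulfate in across the plasma membrane, Slc35b2 moves PAPS into the Golgi, and there the tyrosine sulfotransferases Tpst1 and Tpst2 and a large set of carbohydrate sulfotransferases use it on secreted and membrane proteins. The Sult enzymes use it in the cytosol on phenols, amines and steroids.

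The promoter windows of both synthases are shown because the set is built on Papss2 and Papss1 is its paralog, and that of Sult1a1 because it holds the searched letters. They cover the 250 bases before an annotated start site, 5' to 3' on the gene's strand, from RefSeq on GRCm38.p6. They lie at chr19:32595465-32595714 and chr19:32619755-32620004 (plus strand) for Papss2, at chr3:131564518-131564767 (plus strand) for Papss1, and at chr7:126676419-126676668 (minus strand) for Sult1a1. Capitals mark AGAACA or, on the other strand, TGTTCT, which is the arm of the androgen response element.
Papss2, upstream start: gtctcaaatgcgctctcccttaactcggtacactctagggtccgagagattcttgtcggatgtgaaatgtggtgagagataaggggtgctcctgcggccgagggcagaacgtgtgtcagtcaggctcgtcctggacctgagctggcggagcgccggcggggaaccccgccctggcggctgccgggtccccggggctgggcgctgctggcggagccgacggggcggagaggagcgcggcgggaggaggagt
Papss2, downstream start: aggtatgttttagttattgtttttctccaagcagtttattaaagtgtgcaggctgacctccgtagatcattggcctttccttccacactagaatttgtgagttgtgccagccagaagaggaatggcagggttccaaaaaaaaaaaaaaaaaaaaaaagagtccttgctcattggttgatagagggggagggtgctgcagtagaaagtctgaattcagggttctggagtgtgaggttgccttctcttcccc
Papss1, upstream start: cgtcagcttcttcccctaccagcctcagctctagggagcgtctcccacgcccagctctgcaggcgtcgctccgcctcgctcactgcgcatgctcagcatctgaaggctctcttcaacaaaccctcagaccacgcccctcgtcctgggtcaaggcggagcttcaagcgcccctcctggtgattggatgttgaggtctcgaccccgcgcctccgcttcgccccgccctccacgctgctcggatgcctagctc
Sult1a1: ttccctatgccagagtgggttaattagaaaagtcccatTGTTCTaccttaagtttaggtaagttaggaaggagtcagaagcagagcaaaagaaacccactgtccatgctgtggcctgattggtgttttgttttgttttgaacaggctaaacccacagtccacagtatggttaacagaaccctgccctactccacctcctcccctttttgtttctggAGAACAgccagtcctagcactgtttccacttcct
The arm was not found in either Papss2 window or in the Papss1 window, and it occurred 2 times in that of Sult1a1. RefSeq windows were matched for 8 of the 9 genes, 13 windows in all, and 3 of the 13 held the arm (those of Sult1a1 and Sult1c2 and the upstream window of Tpst1), against 16.1% of 32851 windows of the same length. The whole element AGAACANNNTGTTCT, whose ends are these arms, was in none of the 13 and in 3 of the 32851 windows. These matches describe letters in short windows and nothing beyond them.

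Values are log2 intensities, so a step of 1 is a doubling, and they can be compared between arrays for a gene but not between genes. Background control rows reached at most 6.40, a value set by castrated replicate 3, while their highest value in the other 9 arrays was between 4.66 and 5.58. Changes of genes near these levels may be compressed. The array labelled regenerated replicate 4 stood apart. On the first principal component of all genes, with 44.3% of the variance, it lay at 3.03, against -31.0 to -23.2 for the other regenerated arrays and -47.6 to -40.5 for the intact ones. The 6 measured luminal markers, among them Krt8, Krt18 and Epcam, averaged 14.8 to 15.4 in every array but did not move together. Krt8, Krt18 and Cd24a rose after castration by 1.37, 1.41 and 1.72 log2, and after testosterone Krt8 fell by 2.05 and Krt18 fell by 1.69 (limma adjusted p up to 0.0364). Hoxb13 fell by 2.65 and rose by 1.74, and Pbsn rose by 1.55 after testosterone (limma adjusted p up to 0.0321). Hoxb13, whose promoter drives the reporter, was at 10.19 to 10.54 in intact, 7.54 to 7.93 in castrated and 8.26 to 10.27 in regenerated arrays, lowest of the last in replicate 4. Among leukocyte markers Ptprc stayed between 3.55 and 3.76 and Adgre1 between 3.67 and 3.93, under the highest background row of every array. Cd68 was at 6.92 to 9.31 in intact, 7.92 to 9.70 in castrated and 7.40 to 8.88 in regenerated arrays, and was not called. The T cell gene Cd3e was at 5.40 to 8.18 in intact, 8.26 to 11.76 in castrated and 5.73 to 7.38 in regenerated arrays. Cd3e differed by 3.39 log2 after castration (limma adjusted p = 0.0507) and fell by 4.04 after testosterone (limma adjusted p = 0.0253). Itgam rose by 0.38 after castration (limma adjusted p = 0.0181), but at 3.86 to 4.42 it too lay under the highest background row of every array. All 4 endothelial and 2 neuroendocrine markers measured had group means under the highest background value. Seminal vesicle markers (4 of 4 measured) averaged 8.63 to 13.1 in intact, 7.73 to 8.09 in castrated and 5.03 to 13.6 in regenerated arrays. These averages mix genes that differed in direction. Svs2, Svs4 and Svs5 had means of 9.95, 8.57 and 12.47 in intact and 4.81, 5.31 and 6.61 in castrated arrays. Pate4 had means of 12.95 in intact and 14.91 in castrated arrays. For intact, castrated and regenerated arrays, urothelial markers (4 of 4) averaged 8.998 to 9.29, 11.8 to 12.8 and 9.83 to 10.50. Upk1b and Upk3a rose by 5.55 and 5.07 log2 and then fell by 2.29 and 5.14 (limma adjusted p up to 0.0394). Upk1a and Upk2 were not called. In the same order stromal markers (7 of 7) averaged 5.09 to 5.24, 4.49 to 4.89 and 4.95 to 5.16. Dcn fell by 4.70 log2 and then rose by 3.83 (limma adjusted p up to 0.00394). The other 6 had group means under the highest background value. Basal markers (5 of 5) averaged 6.29 to 6.54, 6.80 to 7.21 and 6.56 to 7.33. Of these, Krt14 rose by 0.52 log2 after castration (limma adjusted p = 0.046), and no other basal marker was called. Krt5, Krt14 and Trp63 had group means under the highest background value. Krt15 was at 9.80 to 10.04, 10.43 to 11.56 and 11.42 to 14.02. Leukocyte markers (5 of 6) together averaged 4.80 to 5.73, 5.58 to 6.56 and 5.05 to 5.51. The part of these cells in the results was not tested.

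Papss2 was at 14.80, 15.07 and 16.71 in the 3 intact arrays. It stood at 7.37, 7.36 and 7.13 in the castrated arrays, and at 16.01, 14.09, 14.98 and 13.30 in the regenerated ones. Every castrated array lay far below every other array, while intact and regenerated arrays overlapped. The castrated values were close together and above the highest background value. Values cannot be compared between genes, so whether these lay at the floor of this gene's own row cannot be told. In sorted cells measured in bulk, fewer cells with the transcript and less transcript per cell cannot be told apart.

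The mean of Papss2 was 15.53 ± 1.03 (SD, n = 3) in intact, 7.28 ± 0.14 (n = 3) in castrated and 14.60 ± 1.17 (n = 4) in regenerated arrays. The difference of castrated from intact arrays was -8.24 log2, 302-fold on this scale, and regenerated arrays were 7.31 higher than castrated ones. The difference between regenerated and intact arrays was -0.93. Regenerated replicate 4 was the lowest of its group, 1.73 under the mean of the other 3. Without it the regenerated arrays were 7.74 above the castrated and 0.50 below the intact arrays.

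**Figure D1:**
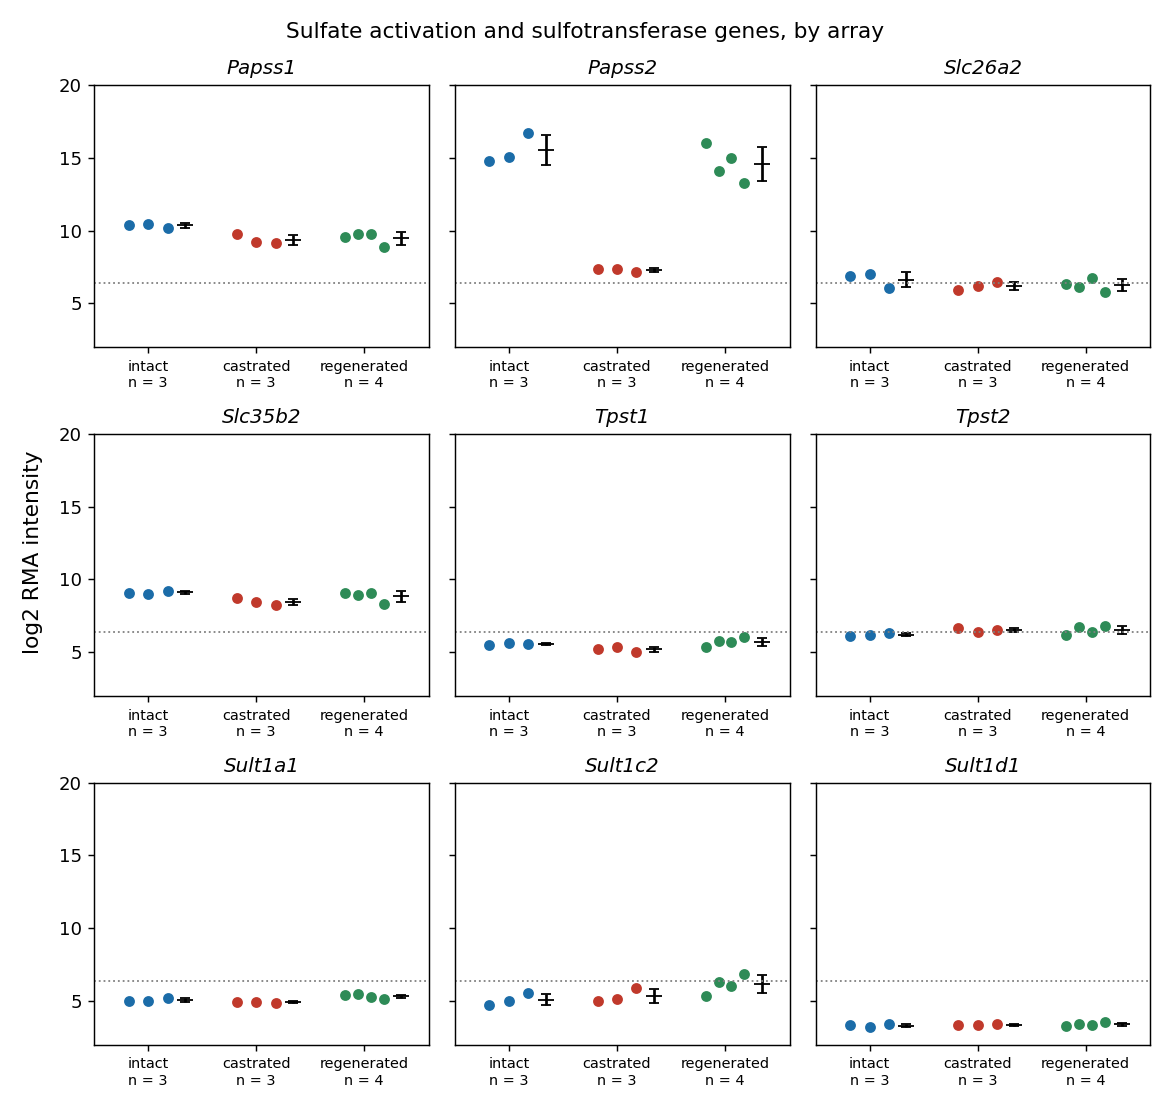
Log2 RMA intensity (vertical axis, same scale in all panels) of the 9 genes in each array, with points for arrays and bars for the mean and SD of the intact (n = 3), castrated (n = 3) and regenerated (n = 4) groups. The dotted line is the highest background control value, 6.40. Papss2 alone spans most of the scale, from 7.13 to 16.71.

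Its paralog Papss1 differed by less than 1 log2 unit in each comparison. Papss1 was at 10.41, 10.47 and 10.17 in intact, 9.76, 9.19 and 9.18 in castrated, and 9.56, 9.77, 9.74 and 8.84 in regenerated arrays. All castrated and all regenerated arrays lay below all intact arrays, and castrated and regenerated arrays overlapped. The change from intact to castrated was -0.98 ± 0.29 (SE) log2, which did not pass limma's test over all genes (adjusted p = 0.0704), with a 95% interval from -1.62 to -0.33. Regenerated arrays differed from castrated ones by 0.10 ± 0.27 (limma adjusted p = 0.893; interval -0.50 to 0.71) and from intact ones by -0.87 ± 0.27 (limma adjusted p = 0.302; interval -1.48 to -0.27). Papss1 was called lower in castrated arrays under 4 of 18 alternative settings. Among them was leaving out regenerated replicate 4 (limma adjusted p = 0.0177), where the estimate stayed at -0.98.

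Slc35b2, the Golgi PAPS transporter, was at 9.10, 9.03 and 9.19 in intact arrays and at 8.69, 8.44 and 8.23 in castrated ones. In regenerated arrays it was at 9.06, 8.93, 9.06 and 8.28. Castrated arrays did not overlap intact ones, and regenerated replicate 4 lay among the castrated values. The change after castration was -0.65 ± 0.25 log2 (limma adjusted p = 0.159, interval -1.20 to -0.10). It passed under 1 of 18 alternative settings, without regenerated replicate 4 (limma adjusted p = 0.0467), where the estimate stayed at -0.65. From castrated to regenerated the difference was 0.38 ± 0.23 (limma adjusted p = 0.432; interval -0.14 to 0.89).

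Slc26a2, the sulfate and anion exchanger, ranged from 6.03 to 7.03 in intact, 5.94 to 6.50 in castrated and 5.80 to 6.75 in regenerated arrays. The groups overlapped in all comparisons. Its change after castration was -0.42 ± 0.30 log2 (limma adjusted p = 0.503), with an interval from -1.09 to 0.25.

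The tyrosine sulfotransferases, which sulfate proteins passing through the Golgi, differed by less than 1 log2 unit in every comparison. Tpst1 was at 5.53 to 5.61 in intact, 5.02 to 5.33 in castrated and 5.37 to 6.07 in regenerated arrays, with castrated arrays below all others. It differed by -0.37 ± 0.17 log2 after castration (limma adjusted p = 0.255) and by 0.53 ± 0.16 from castrated to regenerated arrays (limma adjusted p = 0.0928). The latter passed under 1 of 18 alternative settings, without regenerated replicate 1 (limma adjusted p = 0.0372). Tpst2 was at 6.13 to 6.33, 6.38 to 6.64 and 6.21 to 6.84 in the same order. It differed by 0.31 ± 0.19 after castration (limma adjusted p = 0.402), the sign opposite to Tpst1.

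Among the cytosolic sulfotransferases, Sult1a1, which conjugates phenols, was at 4.98 to 5.24 in intact, 4.87 to 4.97 in castrated and 5.17 to 5.46 in regenerated arrays. Regenerated arrays lay above all castrated ones, by 0.39 ± 0.11 log2 (limma adjusted p = 0.0788). This difference passed under 2 of 18 alternative settings, without regenerated replicate 4 (limma adjusted p = 0.045) and with array weights (limma adjusted p = 0.0474). Sult1c2 was at 4.76 to 5.55, 5.001 to 5.87 and 5.38 to 6.88, with overlap between all groups. Its difference between regenerated and castrated arrays was 0.81 ± 0.34 (limma adjusted p = 0.232; interval 0.05 to 1.56). The 4 regenerated arrays held Sult1c2 at 5.38, 6.33, 6.03 and 6.88, with seminal vesicle markers at averages of 9.25, 10.99, 5.03 and 13.6. The intact arrays held it at 4.76, 5.01 and 5.55, with averages of 13.1, 11.2 and 8.63, in the opposite order. A relation of Sult1c2 to these markers was not tested. Sult1d1 stayed between 3.19 and 3.56 in all 10 arrays, within the range of background rows. The group means of Tpst1, Sult1a1, Sult1c2 and Sult1d1 were all under 6.40, and those of Sult1a1 and Sult1d1 also under 5.58. Against the highest background row of the same array, Tpst1 was above it in 8 of 10 arrays, Sult1c2 in 6, Sult1a1 in 3 and Sult1d1 in 0.

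Limma with Benjamini-Hochberg adjustment called none of the 8 partners in any of the 3 comparisons. Between castrated and intact arrays 8.01% of all genes were called, and 2 of 8 partners against 6236 of 30142 genes had an unadjusted p under 0.05. Between regenerated and castrated arrays 4.98% of all genes were called, and 3 of 8 partners against 5707 genes had such a p. Between regenerated and intact arrays, where 0.0365% of genes were called, it was 2 of 8 against 3019 genes. Groups of arrays did not overlap for 5 of 8 partners in the first comparison (28.9% of all genes), 2 of 8 in the second (16.0%) and 1 of 8 in the third (9.65%). The median change of the partners was -0.26 log2 after castration and 0.24 from castrated to regenerated arrays, where the medians over all genes were 0.04 and -0.01. No partner's interval reached beyond -1.62 after castration or beyond 1.56 after testosterone. Without regenerated replicate 4, Papss1 and Slc35b2 were called after castration, where 3271 of 30142 genes were called. In that fit Sult1a1 was called after testosterone, where 2127 genes were. Fitting only the groups compared called 0 partners in each comparison.

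**Figure D2:**
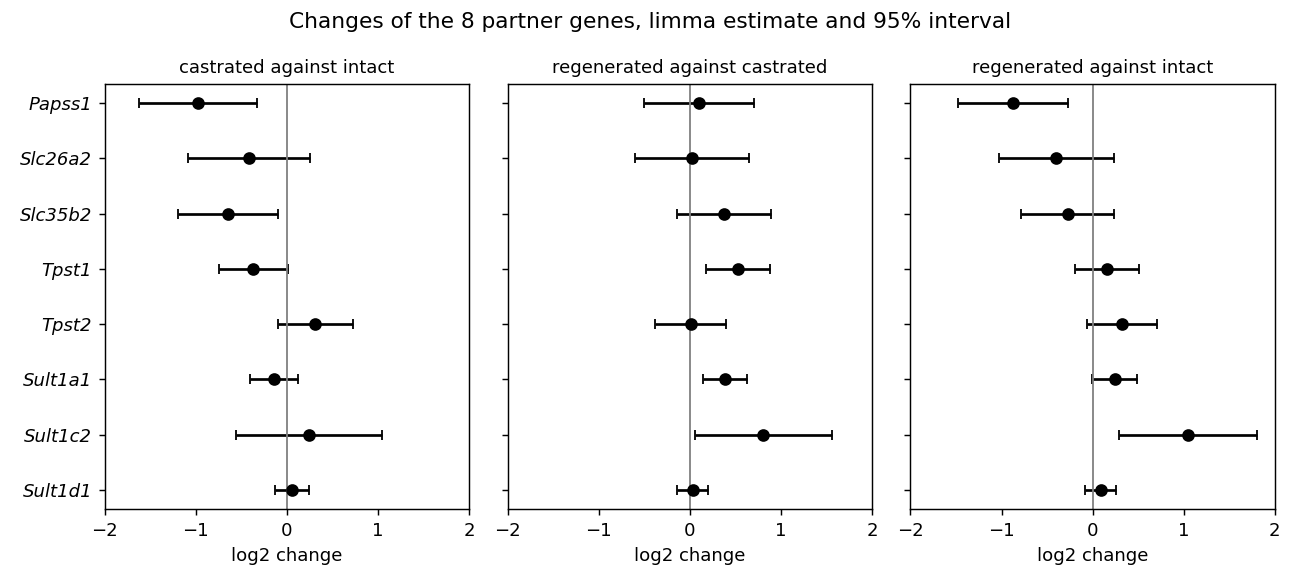
Estimated log2 change (horizontal axis) of the 8 partner genes in the 3 comparisons, with points for limma's estimate and bars for its 95% interval over 10 arrays. The estimates lie between -0.98 for Papss1 after castration and 1.05 for Sult1c2 in regenerated against intact arrays.

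A further 90 genes of sulfate supply, transfer and removal were measured, of 93 listed. After castration 4 of them rose and 4 fell by limma's test, where 4.82% of all genes rose and 3.19% fell. From castrated to regenerated arrays 5 rose and 1 fell, where 1.97% of all genes rose and 3.01% fell. Together these were 8 of 90 against 8.01% of all genes and 6 of 90 against 4.98%, so the shares were near the background. Limma called none between regenerated and intact arrays, where 0.0332% of all genes were higher and 0.00332% lower. There 10 of the 90 had an unadjusted p under 0.05, against 3019 of all 30142 genes. Without regenerated replicate 4 the counts called were 10, 9 and 0 of 90, against 3271, 2127 and 25 of all 30142 genes. Of the 90, 69 had all group means at or under the highest background value, as had 20138 of the 30142 genes. Without castrated replicate 3 setting that value these were 62 and 18153.

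The list of sulfur amino acid metabolism, which holds the steps from cysteine to sulfate and branches beside them, had the 3 genes with the largest called changes among these 90, Suox, Cdo1 and Tst. Suox is the mitochondrial sulfite oxidase, which turns sulfite into sulfate at the end of cysteine breakdown. It was at 9.30, 8.57 and 9.79 in intact, 7.12, 5.94 and 6.65 in castrated, and 10.20, 10.59, 10.18 and 9.79 in regenerated arrays. All castrated arrays lay below all others, and regenerated replicate 4 lay just under the highest intact array. Suox fell by 2.65 ± 0.38 (SE) log2 after castration (limma adjusted p = 0.00218) and rose by 3.62 ± 0.35, 12.3-fold, from castrated to regenerated arrays (limma adjusted p = 0.00039). Both calls held under all 18 alternative settings.

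Upstream of it the pathway divides. Cdo1, cysteine dioxygenase, oxidises cysteine to cysteine sulfinate, and Csad turns that product towards taurine and away from sulfate. Cdo1 was at 10.75, 9.18 and 9.73 in intact, 12.18, 11.91 and 12.23 in castrated, and 10.66, 12.72, 11.47 and 12.23 in regenerated arrays. It rose by 2.22 ± 0.52 log2 after castration (limma adjusted p = 0.0268), a call made under 12 of 18 alternatives and lost without intact replicate 2 (change 1.87, limma adjusted p = 0.111) and without intact replicate 3 or any castrated replicate. Regenerated arrays spread over both other groups and differed from castrated ones by -0.34 ± 0.49 (limma adjusted p = 0.782).

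Csad was at 8.45, 8.27 and 8.35 in intact, 7.02, 6.76 and 7.40 in castrated, and 8.63, 8.69, 8.79 and 9.13 in regenerated arrays. The 3 groups did not overlap, and regenerated arrays were highest. It fell by 1.30 ± 0.22 log2 after castration (limma adjusted p = 0.00575) and rose by 1.75 ± 0.21 after testosterone (limma adjusted p = 0.00109), both under all 18 alternatives. Against intact arrays the regenerated ones differed by 0.45 ± 0.21 (limma adjusted p = 0.505).

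Tst, the mitochondrial sulfurtransferase rhodanese, was at 9.63 to 9.73 in intact, 11.64 to 12.00 in castrated and 10.31 to 11.83 in regenerated arrays. It rose by 2.12 ± 0.33 log2 after castration (limma adjusted p = 0.00395), under all 18 alternatives. Regenerated arrays lay above all intact arrays, by 1.41 ± 0.31 (limma adjusted p = 0.238), and were called only without regenerated replicate 1 (limma adjusted p = 0.043). From castrated to regenerated arrays the difference of -0.71 ± 0.31 did not pass (limma adjusted p = 0.254), except without regenerated replicate 4 (-0.96, limma adjusted p = 0.0494). In this list of 12 genes, 2 rose and 2 fell after castration, where 4.82% of all genes rose and 3.19% fell. After testosterone 2 of the 12 rose, where 1.97% of all genes did. Whether the list differs from these shares was not tested.

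**Figure D3:**
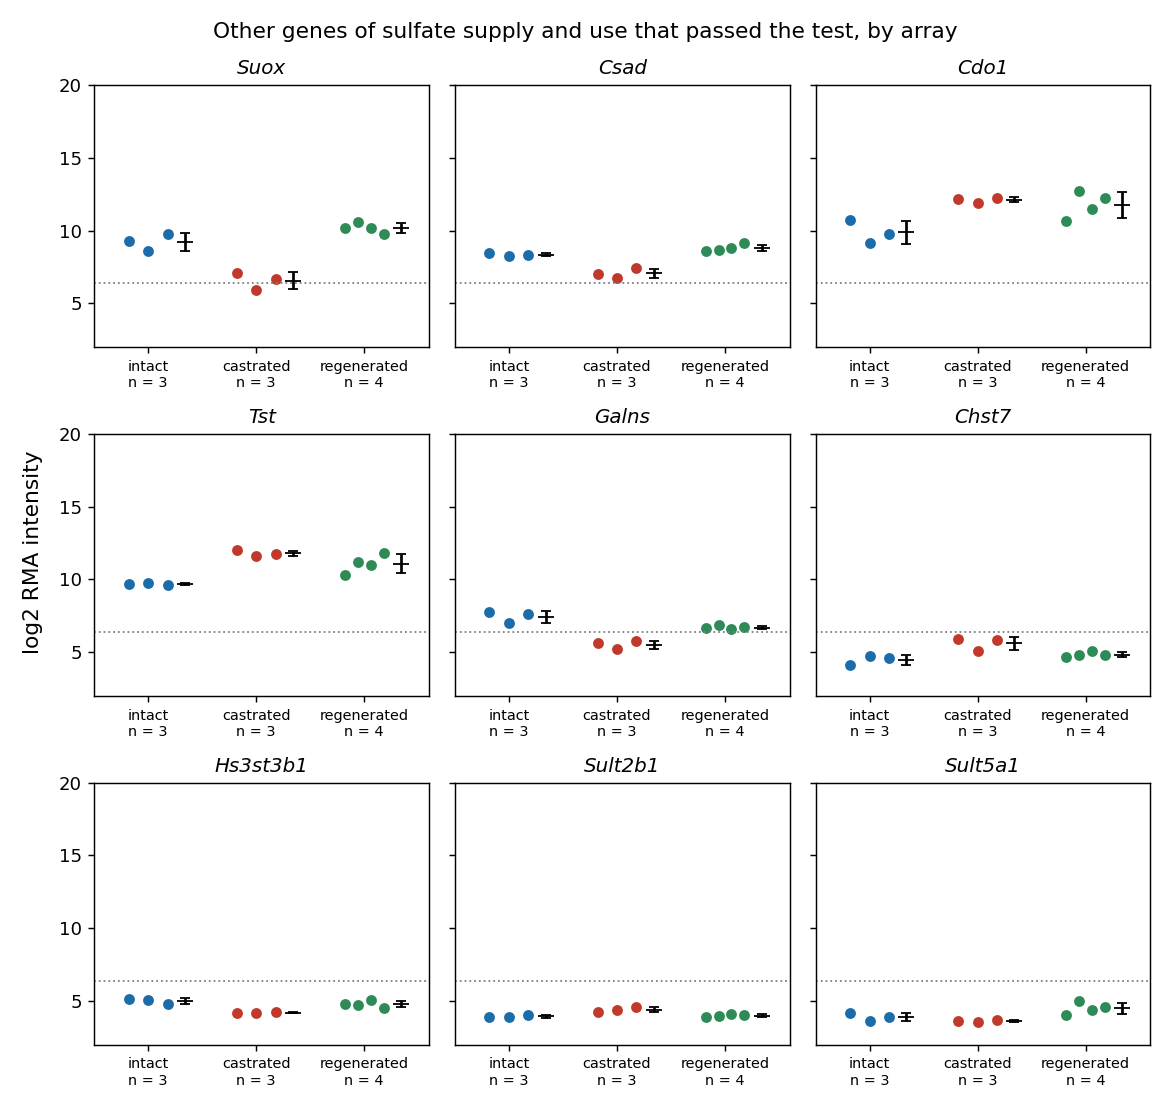
Log2 RMA intensity (vertical axis) by array of the 9 genes outside the partner set that passed limma's test in at least 1 comparison, with points for arrays, bars for the mean and SD of each group, and the highest background control value as a dotted line. Castrated arrays of Suox (5.94 to 7.12) and Csad (6.76 to 7.40) lie below those of both other groups, while those of Tst (11.64 to 12.00) lie above intact arrays.

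Calls among the transferases are given by list, here and in the next paragraphs. Of all genes, 8.01% were called after castration and 4.98% after testosterone. The counts of the lists are too small to be set apart from these shares. Of 14 heparan sulfate sulfotransferases measured, 1 fell after castration and rose after testosterone. This was Hs3st3b1, a late modifier of heparan sulfate, at 5.003 ± 0.21 (SD, n = 3), 4.19 ± 0.03 (n = 3) and 4.79 ± 0.23 (n = 4) in intact, castrated and regenerated arrays. It fell by 0.81 ± 0.15 log2 (limma adjusted p = 0.00846) and rose by 0.60 ± 0.14 (limma adjusted p = 0.0348), the latter under 8 of 17 alternatives in which it was fitted.

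Of 21 other carbohydrate sulfotransferases 1 rose after castration. Chst7, a chondroitin sulfotransferase, was at 4.12 to 4.73 in intact, 5.11 to 5.91 in castrated and 4.66 to 5.08 in regenerated arrays. Its rise was 1.14 ± 0.23 log2 (limma adjusted p = 0.0126), and the call was lost without intact replicate 1 (limma adjusted p = 0.0616).

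Of 18 cytosolic sulfotransferases outside the set, 1 rose after castration, and 1 rose and 1 fell after testosterone. Sult2b1, which conjugates cholesterol and hydroxysteroids, was at 3.89 to 4.03 in intact, 4.26 to 4.59 in castrated and 3.91 to 4.12 in regenerated arrays. It rose by 0.46 ± 0.10 log2 (limma adjusted p = 0.0175) and then fell by 0.41 ± 0.09 (limma adjusted p = 0.0311), calls made under 14 and 9 of 17 alternatives. The rise was not called without intact replicate 1 (limma adjusted p = 0.081), intact replicate 2 (0.0719) or castrated replicate 3 (0.0528). Sult5a1 was at 3.57 to 3.70 in castrated and 4.02 to 4.97 in regenerated arrays (limma adjusted p = 0.0327), a call made under 7 of 17 alternatives. All values of Sult2b1, Sult5a1, Hs3st3b1 and Chst7 lay under 6.40. Against the highest background row of the same array, Chst7 was above it in 2 of 3 castrated arrays and in none of the others, Hs3st3b1 in 2 of 10 arrays, and Sult2b1 and Sult5a1 in 0.

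Among 13 sulfatases and their activators 1 fell after castration and rose after testosterone. Galns, the lysosomal sulfatase that opens keratan and chondroitin sulfate to breakdown, was at 7.76, 6.98 and 7.59 in intact, 5.62, 5.20 and 5.75 in castrated, and 6.63, 6.84, 6.58 and 6.72 in regenerated arrays. The 3 groups did not overlap, and regenerated arrays lay between the others. It fell by 1.92 ± 0.22 log2 (limma adjusted p = 0.000781) and rose by 1.17 ± 0.21 (limma adjusted p = 0.00962), both under all 18 alternatives.

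None of 10 other sulfate transporters and PAPS carriers passed limma's test in any comparison. An unadjusted p under 0.05 was found for 1, 2 and 1 of them, against 6236, 5707 and 3019 of all 30142 genes. Slc26a3, an epithelial anion exchanger, was at 5.08, 7.71, 5.97 and 8.76 in regenerated arrays against 4.80 to 5.22 in castrated ones (limma adjusted p = 0.183). The difference of 1.82 log2 ran from 1.19 to 2.42 when each array was left out. It was called under 1 of 18 alternatives, without regenerated replicate 1 (limma adjusted p = 0.0406). In intact arrays Slc26a3 was at 4.93 to 5.12. Slc26a8 stayed between 3.72 and 4.52. Neither of 2 phosphatases that clear PAP, the spent form of the donor, passed limma's test or had an unadjusted p under 0.05. Bpnt1, the cytosolic one, differed by -0.34 ± 0.32 log2 after castration (limma adjusted p = 0.626). Bpnt2, the Golgi one, differed by -0.38 ± 0.25 (limma adjusted p = 0.449).

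The 8 genes whose pattern was nearest to that of Papss2 over the 10 arrays were in none of the sulfate pathway lists. The 9 members and 90 further pathway genes are a small part of the 30142 genes. By number alone the nearest genes would mostly lie outside the pathway, so this is no result about it. Likeness was the root mean square difference in log2 after each gene was centred on its own mean, over protein-coding genes without a predicted name. Timp4, a metalloproteinase inhibitor, was nearest, at 0.61, followed by the glycosyltransferase Abo at 0.997, Wfdc3 at 1.08, the secretoglobin Scgb2b20 at 1.10, the G protein regulator Rgs2 at 1.10, the spermine-binding protein Sbp at 1.14, the protease inhibitor Spink5 at 1.14 and Azgp1, a secreted zinc-binding glycoprotein, at 1.19. These genes were chosen for their pattern, so their changes are a description. In regenerated replicate 4, Timp4 stood at 11.16, Abo at 11.41 and Wfdc3 at 12.19, each below the other regenerated arrays (13.35 to 14.99, 13.60 to 14.95 and 14.33 to 15.02), as Papss2 was. The measure depends on the size of a change, so a gene that changes little lies far from Papss2 whatever its direction. Ranked from the nearest among all 30141 other genes, Suox was at 78, with a difference of 2.33. Slc35b2 was at 1732, Papss1 at 1886 and the remaining partners between 2759 and 23717.

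**Figure D4:**
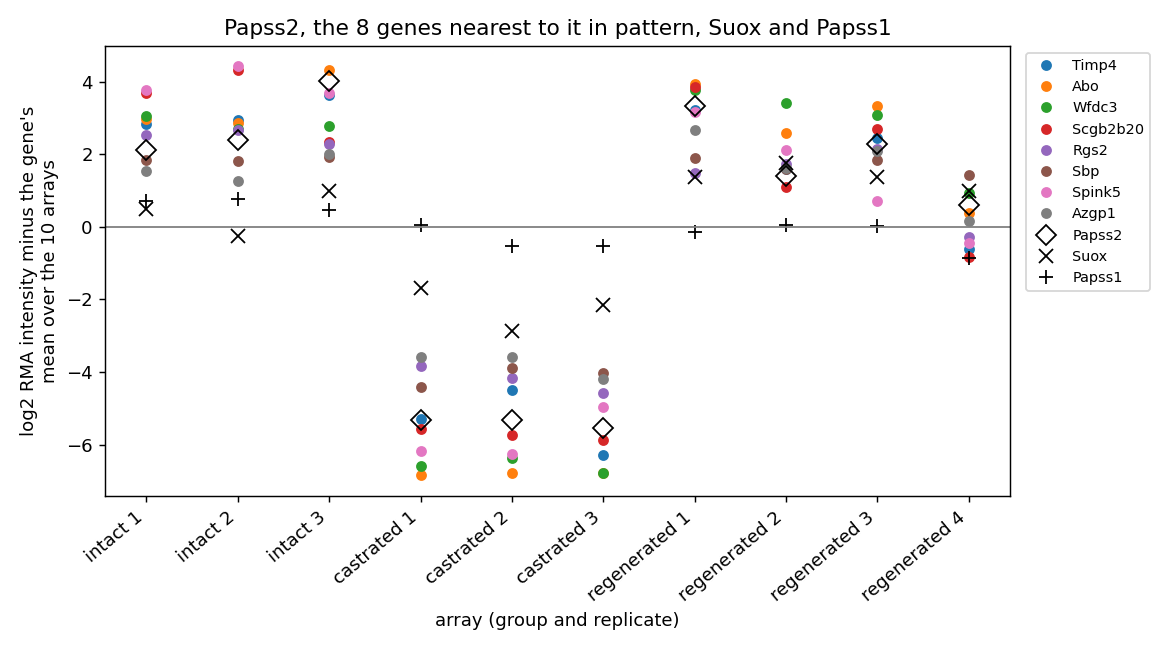
Log2 RMA intensity minus each gene's mean over the 10 arrays (vertical axis) for Papss2 (diamonds), the 8 genes nearest to it in pattern (filled points), Suox and Papss1 (crosses), by array. The filled points and Papss2 fall together in the 3 castrated arrays and are lowest among regenerated arrays in replicate 4 for Papss2 (13.30) and Timp4 (11.16), while Papss1 spans 1.63 over all arrays.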

How the data were processed

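RNA of sorted cells was hybridised to Affymetrix ClariomD (MTA-1.0) arrays, 1 per sample, from RNA with an integrity number of at least 9 per the labels' protocols. The deposited values are log2 intensities made by the authors which the submitters' processing notes tie to Affymetrix Expression Console and RMA, with versions and genome build not given in the sources used here. That step gives all arrays a common distribution, so a shift of all transcripts would be reduced. Arrays have no sequencing depth, and their number limits the precision. Column medians ran from 4.12 to 4.22.

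Rows were named through the platform annotation, with 827 symbols updated through gene identifiers in a RefSeq table of GRCm38.p6. Of 65956 non-control rows, 30604 had 1 symbol, 2146 several (left out) and 33206 none listed. The row with the highest mean was used for 355 genes with several rows. Limma 3.58.1 (R 4.3.3) was run with lmFit and with eBayes set to a mean-variance trend, in a single model of 3 groups with 7 residual degrees of freedom and no covariate, checked on simulated data. Tests were two-sided, with Benjamini-Hochberg adjustment over 30142 genes, and an adjusted p under 0.05 is a call. Rose and fell are used for calls.

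The members and gene lists were chosen with earlier results of these data known. Of 143 listed pathway and marker genes, 136 were measured, and the others are not analysed here. Named genes are the members, up to 4 called genes with the largest change per list (2 where none was called), the 8 genes nearest to Papss2, and markers. The alternatives (18 fits) left out each array, used a replicate block, array weights, another variance model, the compared groups alone, genes above background, mean rows, all rows, or a common median.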

Additional observations from a re-analysis of the deposited data

Results flagged for a closer look

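Slc26a8, an anion transporter of the pathway lists, stood at 4.11 in regenerated replicate 4, above the other 3 regenerated arrays by more than Dixon's limit for 4 samples. It was the only such array among 30 genes examined in the regenerated group, and chance gives about 1 in 20 groups. The value lies under the highest background value of 6.40.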

How the results depend on the processing

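Papss2 kept its direction under all 18 alternatives in all 3 comparisons. It was chosen for its change, and castrated arrays lay at 7.37 or below and all others at 13.30 or above. Its direction against castrated arrays was thus fixed in advance and gives no support. Leaving out each array in turn, the difference of Papss2 ran from -8.60 to -7.65 (castrated against intact), from 6.84 to 7.74 (regenerated against castrated) and from -1.40 to -0.34 (regenerated against intact). Leaving out each array gave 1019 to 3271 called genes (2414 with all arrays) and 0 to 2 partners after castration, 816 to 2127 genes (1500), 0 to 1 partners and 3 to 9 pathway genes (6) after testosterone, and 0 to 78 genes (11) and 0 to 1 pathway genes between regenerated and intact arrays. The lowest counts of genes after castration and testosterone came without intact replicate 1 and castrated replicate 2, and the highest without regenerated replicate 4. Array weights gave 4258 genes after castration, 2236 after testosterone and 70 between regenerated and intact arrays. They gave 1 partner each after castration (Papss1) and testosterone (Sult1a1). Fitting only the compared groups gave 822 genes and 3 pathway genes after testosterone and 0 genes against intact. Genes above background gave 2961 genes and 1 partner (Papss1) after castration and 28 genes between regenerated and intact arrays. Every non-control row gave 3 pathway genes after testosterone and 0 rows against intact, and the other variance model 2 genes against intact. The cause of these shifts was not tested.

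Deviations of same-numbered arrays from their group means correlated between -0.16 and 0.26, over 0.1 in 3 of 9 pairs. These correlations cannot show whether such arrays shared a batch, which the labels do not give. The replicate block gave 2715 genes and 1 partner after castration (Papss1, limma adjusted p = 0.0414), and 4 genes between regenerated and intact arrays. Regenerated replicate 4 is alone in its number, so the block also takes it out of the comparisons. Without that array and with no block, Papss1 was called too (limma adjusted p = 0.0177) and 25 genes were called between regenerated and intact arrays. Under the block Cdo1 after castration (limma adjusted p = 0.0637) and Sult5a1 after testosterone (limma adjusted p = 0.11) were not called, and without that array alone Sult5a1 was not called either (limma adjusted p = 0.0535).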
